A study of Mus musculus with 4 samples.

Results

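BMP response and ID genes were examined in mouse embryonic stem cells deficient in Myh9, which codes for the heavy chain of a non-muscle myosin. The set holds 10 genes, taken by name from the 50600 gene rows of the table, and each was found in 1 row. It comprises the ligand gene Bmp4, the receptor gene Bmpr1a, the signal carrier Smad1, the inhibitors Smad6, Smad7 and Bambi, and the inhibitor of DNA binding genes Id1, Id2, Id3 and Id4. RNA-seq was available for 2 Myh9 KO libraries (Myh9 KO 1 and 2) and 2 WT libraries (WT 1 and 2). All 4 came from OG2ES, an embryonic stem cell line labelled as derived from the inner cell mass and kept in mES medium with 2i, the inhibitor pair that blocks MEK and GSK3, with no further treatment. The labels used here give neither the kind of Myh9 allele nor the number of clones. An effect of Myh9 loss therefore cannot be told apart from a difference between lines or clones. No label names separate cultures, so p-values measure library-to-library spread that may be technical only.

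BMP ligands bind pairs of type I and type II receptor kinases, which phosphorylate SMAD1, SMAD5 and SMAD9. These enter the nucleus with SMAD4 and switch on a small group of direct targets, the ID genes, Smad6, Smad7 and Bambi among them, and the last of these feed back as inhibitors. ID proteins have a helix-loop-helix domain but no DNA-binding region, so they hold E proteins and other bHLH factors off the DNA. In mouse embryonic stem cells, BMP4 together with LIF sustains self-renewal, and induction of ID genes is known as part of that action.

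RefSeq promoter sequences (GRCm38.p6, the assembly of mm10) of 7 of the 10 genes were used here, those of Bmp4, Bmpr1a, Id2, Id3, Id4, Smad1 and Smad6. Those of Id1, Smad7 and Bambi were not searched. Of the 7, the ID genes Id2, Id3 and Id4 are shown. Id2 and Id4 are not counted as changed below, and a link between matches and direction was not tested. The 250 bases before each start were searched on both strands for GGCGCC, the GC-rich core that BMP-activated SMADs bind, and for GTCTG, read as CAGAC on the opposite strand, the SMAD box. Matches are in capitals. Only bases outside the gene's own exons in GENCODE vM21 are shown, except for Id3, where the window lies in the first exon of that annotation and 25 bases around each match are given. The stretches are Id2 chr12:25096254-25096342 (minus strand), Id3 chr4:136143645-136143669 and chr4:136143744-136143768 (plus strand) and Id4 chr13:48260866-48261115 (plus strand).
Id2: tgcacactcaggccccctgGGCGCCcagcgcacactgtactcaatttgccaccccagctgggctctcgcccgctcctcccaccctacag
Id3 upstream match: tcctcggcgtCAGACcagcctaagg
Id3 downstream match: acccttggcgGTCTGttttgaataa
Id4: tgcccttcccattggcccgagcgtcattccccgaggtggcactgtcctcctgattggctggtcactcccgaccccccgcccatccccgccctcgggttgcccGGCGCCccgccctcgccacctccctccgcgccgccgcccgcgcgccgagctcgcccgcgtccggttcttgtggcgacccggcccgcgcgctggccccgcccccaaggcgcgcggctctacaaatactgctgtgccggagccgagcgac

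GGCGCC was present in 3 of the 7 windows, those of Id2 (231 bases before the start), Id4 (148 bases) and Bmpr1a (198 bases), against 9.59% of all 32851 RefSeq promoter windows of that length. GTCTG was present in 1 of the 7, that of Id3, with matches 167 and 68 bases before the start, against 42.2% of all windows. A match is a description of these letters in this window and shows no binding.

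The deposited values are whole numbers that sum to between 992098 and 992317 in each library, as per-million values with their decimals dropped would. They are not read counts, the read depth is unknown, and 1 unit is the finest step that can be seen. Whether they are scaled per gene length is not stated, so levels are compared between libraries and not between genes. Myh9 itself had values of 9 and 9 in Myh9 KO and 83 and 100 in WT (limma log2 fold change -3.20, SE 0.12, adjusted p = 0.00675), and limma gave it an adjusted p of 0.0675 without Myh9 KO 1 and 0.0709 without Myh9 KO 2 at the same fold. Each of the 7 embryonic stem cell markers, Pou5f1 and Nanog among them, was listed at 57 or more in every library. Of the 7, 1 fell and 0 rose by the 2 tests described below: Sox2, a core pluripotency factor, was at 126 and 121 in Myh9 KO and 177 and 183 in WT (limma log2 fold change -0.54, adjusted p = 0.0178, and 0.000417 with random decimals). Limma lost Sox2 with any 1 library left out, at adjusted p from 0.0696 without Myh9 KO 1 to 0.109 without WT 2. Of the 7 stem cell markers, 4 had a log2 fold change above 0 and 3 below, with a median of 0.03. Zfp42 had values of 210 and 181 in Myh9 KO and 140 and 142 in WT (log2 fold change 0.46). Random decimals alone called Zfp42 higher (adjusted p = 0.00324, with a limma adjusted p of 0.0951). Of 9 fibroblast markers, 7 were listed at 0 in all 4 libraries, and the 9 summed to 5 and 7 in Myh9 KO and 4 and 4 in WT. The 5 trophoblast markers summed to 18 and 18 in Myh9 KO and 12 and 12 in WT, with Elf5, Krt7 and Hand1 at 0 throughout. Eomes, a T-box factor of trophoblast and mesendoderm, rose to 11 and 11 in Myh9 KO, against 6 and 6 in WT (limma log2 fold change 0.78, adjusted p = 0.00406, and 0.00747 with random decimals). Cdx2, a trophoblast homeobox factor, had values of 7 and 7 in Myh9 KO and 6 and 6 in WT and was called higher by the designed test alone (limma adjusted p = 0.0359, and 0.391 with random decimals). The 5 primitive endoderm markers summed to 5 and 6 in Myh9 KO and 1 and 2 in WT, with Gata6, Sox7 and Foxa2 at 0 throughout. Gata4 alone had 5 and 5 in Myh9 KO and 1 and 2 in WT. It was called higher with random decimals alone (adjusted p = 0.00908, with a limma adjusted p of 0.092). The 4 mesoderm markers summed to 3 and 2 in Myh9 KO and 1 and 1 in WT, with Kdr, Mesp1 and Mixl1 at 0, and the 4 neural markers to 5 and 5 in Myh9 KO and 6 and 7 in WT. The part of such cells in the results below was not tested.

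The ID genes did not move as one group. Id1 and Id3 rose in Myh9 KO cells, while Id2 and Id4 had lower values there. Of the feedback inhibitors, Smad7 fell and Smad6 and Bambi had lower values in both Myh9 KO libraries. Bmp4 had higher values in Myh9 KO, and Bmpr1a and Smad1 differed least. In bulk RNA, fewer cells expressing a gene and less of its RNA per cell cannot be told apart.

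Differences were tested with limma on log2(value + 1) over the 11231 genes whose mean value reached 1, and again with random decimals added to every value, since equal whole numbers in replicates leave no spread. The words rose and fell are kept for genes to which both tests gave a Benjamini-Hochberg adjusted p under 0.05. By this rule 2 of the 10 genes rose, against 5.14% of all tested genes, and 1 fell, against 5.8%. By the designed test, with random decimals set aside, 2 were higher, against 7.17% of all tested genes, and 2 were lower, against 7.96%. Over all genes 47.4% of the calls of that test were higher, and 58.7% after each library was centred on its median. Random decimals called 1236 genes higher and 1351 lower, against 805 and 894 by the designed test. The test with random decimals was thus the looser by number of calls, and its smaller p-values rest on the same 2 libraries per group. Both Myh9 KO values lay above both WT values for 3 of the 10 genes, where 26.2% of all tested genes did so. They lay below both WT values for 6 of the 10, where 27.3% of all tested genes did. The median log2 fold change was -0.34 over the 10 genes and 0 over all tested genes.

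**Figure D1:**
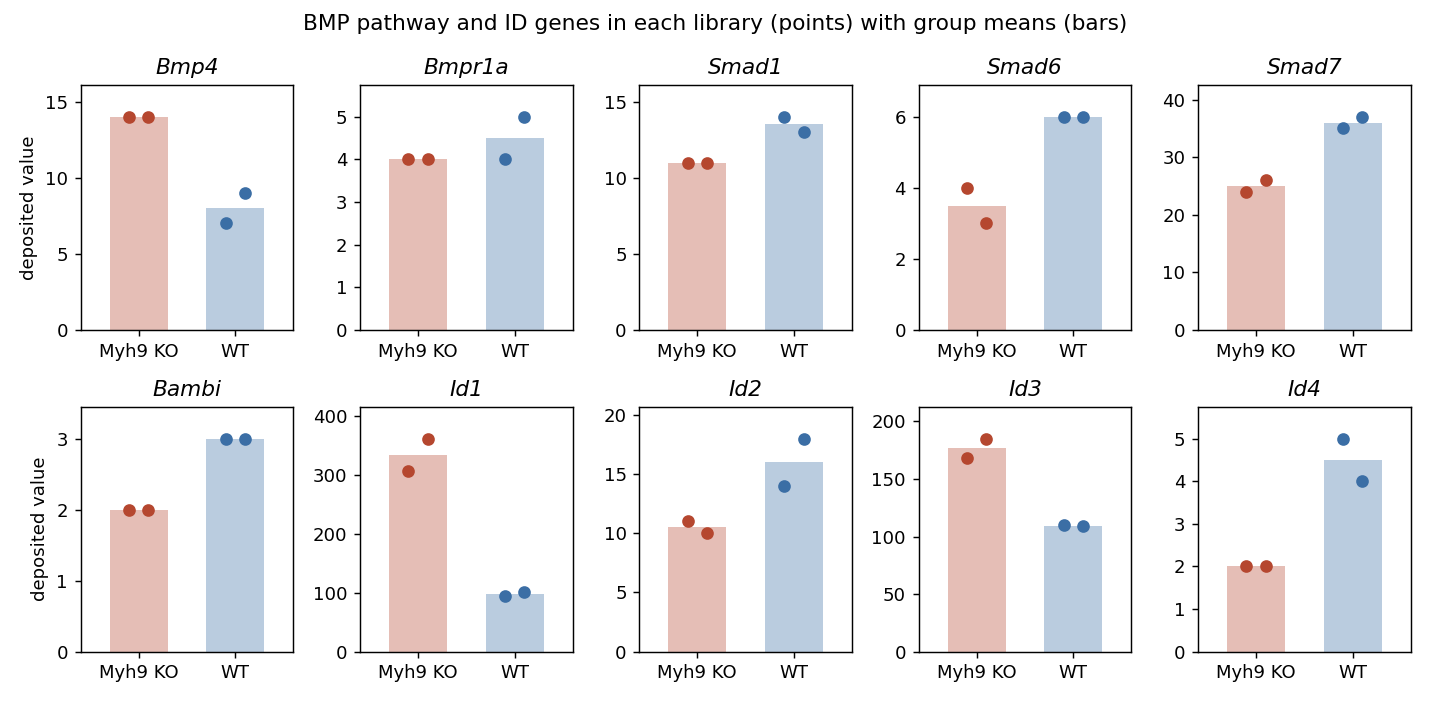
Deposited value (vertical axis, linear from 0, with its own scale in each panel) of the 10 genes in the Myh9 KO libraries (left, red) and the WT libraries (right, blue); points are libraries and bars are group means. Id1, Id3 and Bmp4 are higher in both Myh9 KO libraries than in either WT library, Bmpr1a shares the value 4 between the groups, and the other 6 genes are lower in both Myh9 KO libraries.

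The ligand gene Bmp4 (ENSMUSG00000021835, mm10 chr14:46383520-46390669, minus strand) had values of 14 and 14 in Myh9 KO and 7 and 9 in WT. The groups did not overlap, and the means were 14 ± 0 in Myh9 KO and 8 ± 1.41 in WT (SD, n = 2 each). The log2 fold change was 0.75 (SE 0.14), a fold of 1.68 with a 95% confidence interval from 1.19 to 2.37. It missed the threshold in the designed test (limma adjusted p = 0.0867) and passed with random decimals (adjusted p = 0.0093). Bmp4 is therefore not counted as changed. The log2 fold change was 0.58 without WT 1, 0.91 without WT 2, and 0.75 without Myh9 KO 1 or without Myh9 KO 2. Whether Bmp4 was called in these fits depended on the library left out. With 1 WT library left, the only pair was 14 and 14, which has no spread of its own. With all libraries, both tests called Bmp4 higher after median centring (limma adjusted p = 0.0159, and 0.00606 with random decimals) and after removal of the trend on GC content and length (0.0173 and 0.00653). Bmp4 overlaps Gm15217 and Gm15222 on the opposite strand, and both were listed at 0 in every library.

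Bmpr1a (ENSMUSG00000021796, chr14:34410734-34503341, minus strand), the type I receptor that binds BMP4, had values of 4 and 4 in Myh9 KO and 4 and 5 in WT. The groups overlapped. The log2 fold change was -0.13 (SE 0.12, limma adjusted p = 0.489), and the interval of the fold ran from 0.689 to 1.21, so that a change within that range was not detectable at this resolution. Smad1 (ENSMUSG00000031681, chr8:79338395-79399518, minus strand), a SMAD that BMP receptors phosphorylate, had values of 11 and 11 in Myh9 KO and 14 and 13 in WT. Both Myh9 KO libraries were below both WT libraries, with a log2 fold change of -0.27 (SE 0.05), and neither test called it (limma adjusted p = 0.0764, and 0.144 with random decimals). The log2 fold change of Bmpr1a was -0.26 without WT 1 and 0 without WT 2. That of Smad1 was -0.22 without WT 1 and -0.32 without WT 2. Whether the designed test called either gene in these fits depended on the library left out, while random decimals called neither. With 1 WT library left, the only pairs were 4 and 4 for Bmpr1a and 11 and 11 for Smad1, which have no spread of their own.

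Smad7 (ENSMUSG00000025880, chr18:75367529-75395935, plus strand), which blocks the receptor and recruits ubiquitin ligases to it, fell in the Myh9 KO libraries. It was listed at 24 and 26 in Myh9 KO and 35 and 37 in WT, with means of 25 ± 1.41 in Myh9 KO and 36 ± 1.41 in WT (SD, n = 2 each). The gap between the groups was wider than the gap within either, with a log2 fold change of -0.51 (SE 0.06), a fold of 0.702 (95% confidence interval 0.606 to 0.815). The limma adjusted p was 0.0445, close to the threshold, and 0.0058 with random decimals. The designed test lost the call with any 1 library left out, at adjusted p of 0.137 without Myh9 KO 1, 0.118 without Myh9 KO 2, 0.182 without WT 1 and 0.208 without WT 2. Random decimals, the looser test by number of calls, kept the call in each of the 11 alternative settings.

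Smad6 (ENSMUSG00000036867, chr9:63953076-64022059, minus strand), the inhibitory SMAD that acts mainly on the BMP branch, had values of 4 and 3 in Myh9 KO and 6 and 6 in WT. The groups did not overlap. The log2 fold change was -0.65 (SE 0.14), and the gene missed both tests (limma adjusted p = 0.105, and 0.0502 with random decimals). Leaving out either WT library kept the log2 fold change at -0.65. It moved to -0.81 when Myh9 KO 1 was dropped and to -0.49 when Myh9 KO 2 was dropped. Whether Smad6 was called in these fits depended on the library left out. With either Myh9 KO library dropped, the only pair was 6 and 6 in WT, which has no spread of its own. With all libraries, both tests called Smad6 lower after removal of the trend on GC content and length (log2 fold change -0.82, limma adjusted p = 0.0383, and 0.0215 with random decimals).

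Bambi (ENSMUSG00000024232, chr18:3507957-3516404, plus strand), a membrane pseudoreceptor without a kinase domain, had values of 2 and 2 in Myh9 KO and 3 and 3 in WT. The designed test called it lower (log2 fold change -0.42, limma adjusted p = 0.00406), since both pairs of replicates were equal and left no spread, and random decimals did not (adjusted p = 0.282). A difference of 1 unit was thus not resolved. Of 1033 tested genes with equal replicates in both groups, 573 were called by the designed test and 180 by both tests.

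Id1 (ENSMUSG00000042745, chr2:152736251-152737410, plus strand), the ID gene most often used as a readout of BMP signalling, had values of 306 and 361 in Myh9 KO and 95 and 101 in WT. Every Myh9 KO value was far above every WT value, and the means were 333.5 ± 38.9 in Myh9 KO and 98 ± 4.24 in WT (SD, n = 2 each). Id1 rose by a log2 fold change of 1.75 (SE 0.11), a fold of 3.37 (95% confidence interval 2.58 to 4.41, limma adjusted p = 0.0178, and 8.54e-06 with random decimals). That log2 fold change was the 30th largest of all 11231 tested genes. The fold stayed close with any library left out, between 1.63 without Myh9 KO 2 and 1.87 without Myh9 KO 1 on the log2 scale. The designed test lost the call without WT 1 and without WT 2, and random decimals, the looser test by number of calls, kept it.

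Id3 (ENSMUSG00000007872, chr4:136143497-136145755, plus strand), a second ID gene known to be induced by BMP4 in stem cells, had values of 168 and 185 in Myh9 KO and 110 and 109 in WT. The groups did not overlap, and the means were 176.5 ± 12 in Myh9 KO and 109.5 ± 0.707 in WT (SD, n = 2 each). Id3 rose by a log2 fold change of 0.68 (SE 0.06), a fold of 1.6 (95% confidence interval 1.38 to 1.86, limma adjusted p = 0.0285, and 0.000243 with random decimals). The intervals of Id1 and Id3 did not overlap, although the difference between them was not itself tested. The designed test lost Id3 without WT 1 (limma adjusted p = 0.18) and without WT 2 (0.184) at log2 fold changes of 0.69 and 0.68.

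Id2 (ENSMUSG00000020644, chr12:25093801-25096092, minus strand), an ID gene also tied to lineage choice in the early embryo, had values of 11 and 10 in Myh9 KO and 14 and 18 in WT. The groups did not overlap, but the WT libraries lay further from each other than the groups did. The log2 fold change was -0.56 (SE 0.16), with an interval of the fold from 0.462 to 1.00. The designed test did not call Id2 (limma adjusted p = 0.152), and random decimals did (adjusted p = 0.0312). The log2 fold change was -0.38 without WT 2 and -0.34 after removal of the trend on GC content and length. The Id2 transcript has a GC content of 45.1%, and the median log2 fold change of tested genes between 45.0% and 49.0% GC was -0.07.

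Id4 (ENSMUSG00000021379, chr13:48261427-48264036, plus strand), the ID family member best known from neural precursors, had values of 2 and 2 in Myh9 KO and 5 and 4 in WT. The groups lay a few units apart and did not overlap. The log2 fold change was -0.87 (SE 0.12), which missed the threshold in the designed test (limma adjusted p = 0.0514) and passed it with random decimals (0.0333). A pseudocount of 0.5 (log2 fold change -0.99, limma adjusted p = 0.0496), a filter at a mean of 2 (-0.87, 0.0447) and median centring (-0.82, 0.041) each brought it under the threshold in both tests. Random decimals lost it without WT 1 (adjusted p = 0.194), without WT 2 (0.0717) and after removal of the trend on GC content and length (0.0755, with a limma adjusted p of 0.0511), and limma gave 0.219 without Myh9 KO 1 and 0.24 without Myh9 KO 2. Id4 overlaps A330033J07Rik on the opposite strand, listed at 0 in every library, and Gm49291, not analysed here. Its GC content is 42.6%, and the median log2 fold change of genes between 31.0% and 45.0% GC was -0.15. The fold with that trend removed was -0.70 on the log2 scale.

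**Figure D2:**
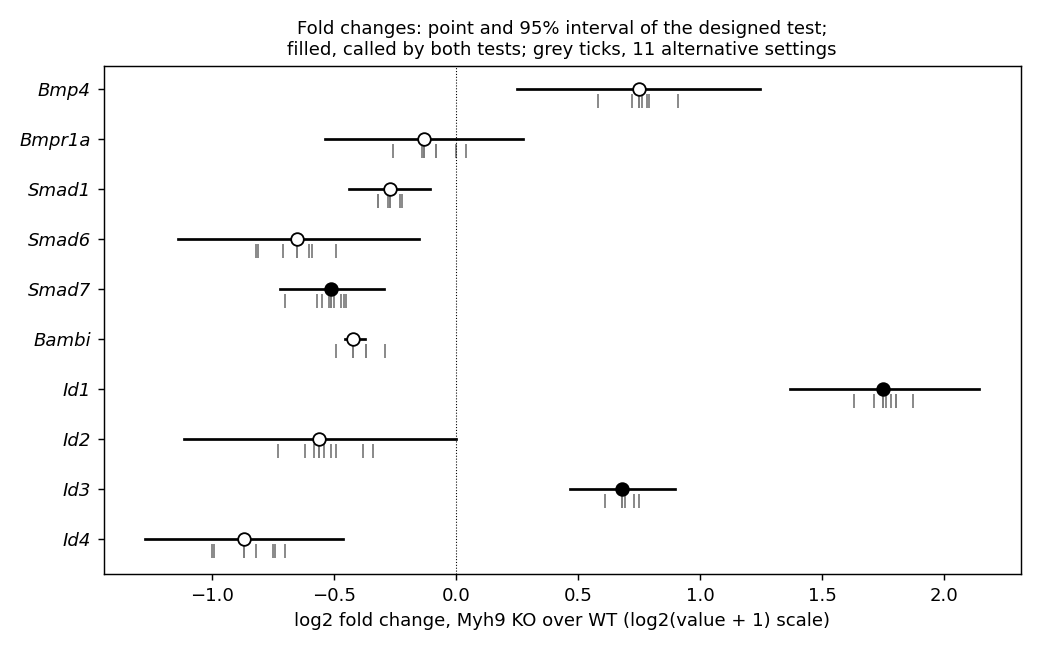
Log2 fold change of Myh9 KO over WT (horizontal axis, on the log2(value + 1) scale) for the 10 genes, with the point and 95% confidence interval of the designed test; filled points were called by both tests and grey ticks are the 11 alternative settings. Id1 at 1.75 and Id3 at 0.68 lie to the right with every tick, Smad7 at -0.51 lies to the left with every tick, and the interval of Bambi is narrow because its replicates were equal.

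Of the 50-base words of the 10 genes, at most 3.77% (in Bmpr1a) occur in transcripts of another gene, and none do for Id1, Id3, Smad1, Smad6, Smad7 and Bambi. Over the 4 libraries, with log2(value + 1) centred on its mean, the genes averaging 5 or more whose pattern was nearest to that of Id1 were Klk10 (12 and 13 in Myh9 KO, 3 and 3 in WT, a root mean square difference of 0.0556) and Trh (712 and 744 in Myh9 KO, 214 and 226 in WT, 0.0636). Nearest to Id3 were Entpd6 (43 and 47 in Myh9 KO, 28 and 28 in WT, 0.011) and Rasa3 (8 and 9 in Myh9 KO, 5 and 5 in WT, 0.0125). Nearest to Id2 were Rec114 (14 and 13 in Myh9 KO, 18 and 22 in WT, 0.0282) and Fkbpl (16 and 15 in Myh9 KO, 20 and 27 in WT, 0.0294). Over 4 libraries in 2 groups, such likeness is a description of these values.

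**Figure D3:**
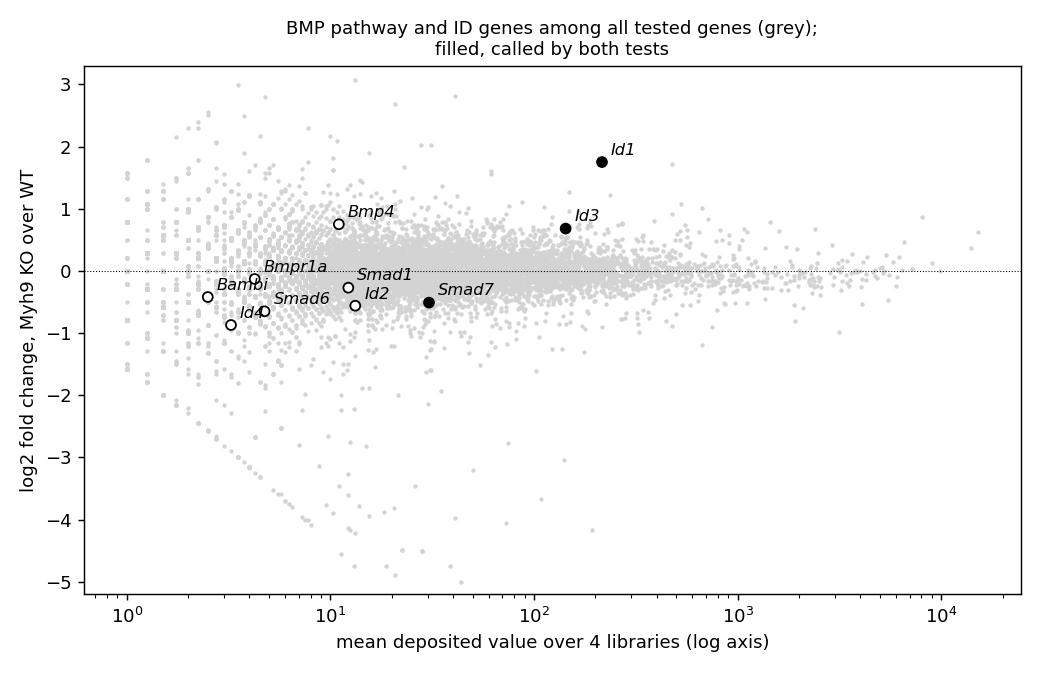
Log2 fold change of Myh9 KO over WT (vertical axis) against the mean deposited value over the 4 libraries (horizontal log axis) for 11231 tested genes (grey) and the 10 BMP pathway and ID genes (circles; filled, called by both tests). Id1 has the largest log2 fold change of the 10 genes, 1.75, while Id4, Bambi and Smad6 lie among genes whose values step by single units.

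The wider pathway was described with lists of its parts, each read from the same fit. Each count below stands beside the shares over all tested genes, of which 5.14% rose and 5.8% fell. By the designed test these shares were 7.17% higher and 7.96% lower. Whether any list differs from them was not tested. Among 18 genes of BMP ligands and their processing, 5 were tested, 11 were listed at 0 in every library and 2 were below the filter. Of the 5, 0 rose and 1 fell, with a median log2 fold change of -0.36. That median was -0.08 with a mean of at least 2, -0.55 after removal of the trend on GC content and length, and -0.24 without Myh9 KO 1. The one that fell was Pcsk6, a proprotein convertase that cleaves TGF-beta family precursors, at 49 and 52 in Myh9 KO and 64 and 67 in WT (limma log2 fold change -0.37 with an SE of 0.05, adjusted p = 0.0498, and 0.00891 with random decimals). The designed test lost it with any library left out, at adjusted p between 0.136 without Myh9 KO 2 and 0.218 without WT 2, and also with a pseudocount of 0.5 (0.0505) or no filter (0.0525). Furin, the convertase that cleaves BMP4, had values of 15 and 18 in Myh9 KO and 20 and 23 in WT and was not called (limma adjusted p = 0.212), although both tests called it lower after removal of that trend (log2 fold change -0.55, limma adjusted p = 0.0163). Bmp7, another ligand gene, had values of 2 and 3 in Myh9 KO and 2 and 2 in WT. Bmp2, the ligand closest to BMP4, was listed at 0 in all 4 libraries.

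Of 7 tested genes among 11 BMP receptors and co-receptors, 0 rose and 0 fell by both tests. The designed limma test called 0 (2 had an unadjusted p under 0.05), the median log2 fold change was -0.03 (-0.11 without Myh9 KO 2 and 0.02 without Myh9 KO 1), and random decimals called Rgma higher and Rgmb lower. These 2 co-receptor genes of the repulsive guidance family, named after their values were seen, were at 5 and 6 in Myh9 KO and 3 and 3 in WT for Rgma, and at 3 and 3 in Myh9 KO and 6 and 5 in WT for Rgmb. Their adjusted p was 0.0556 each in limma, and 0.0492 and 0.0452 with random decimals. Both tests called Rgma with median centring (limma adjusted p = 0.0353) and Rgmb with a mean of at least 2 (0.0479), and random decimals lost both genes with any 1 library left out. Eng, the co-receptor endoglin, had values of 24 and 27 in Myh9 KO and 26 and 26 in WT, with an interval of the fold from 0.821 to 1.17. Acvr2b, a type II receptor shared with activin, had values of 10 and 11 in Myh9 KO and 7 and 10 in WT (limma adjusted p = 0.438). Bmpr2, the type II receptor specific to BMPs, was listed at 0 in every library, and a listed 0 can be a failed estimate.

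Of 10 tested genes among 12 SMADs and their nuclear partners, limma called 0 with or without random decimals (1 had an unadjusted p under 0.05), and the median log2 fold change was -0.05 (-0.15 without WT 1 and 0.07 without WT 2). Smad4, the shared partner of all receptor SMADs, had values of 25 and 22 in Myh9 KO and 25 and 27 in WT (fold interval 0.726 to 1.13). Smad5, a receptor SMAD named after its values were seen, had values of 11 and 7 in Myh9 KO and 5 and 6 in WT. The Smad5 log2 fold change was 0.6 (SE 0.28, limma adjusted p = 0.276, and 0.0945 with random decimals). Yy1, a zinc finger factor that can bind with SMADs, had values of 38 and 36 in Myh9 KO and 38 and 42 in WT (fold interval 0.781 to 1.1).

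The inhibitors inside the cell include Smad6, Smad7 and Bambi. Of 14 tested, 0 rose and 1 fell, which was Smad7, with a median log2 fold change of -0.13. The median was -0.21 without WT 1 and -0.03 without WT 2. Fkbp1a, which holds type I receptors inactive, had values of 561 and 593 in Myh9 KO and 550 and 541 in WT (log2 fold change 0.08, limma adjusted p = 0.279). Ctdsp2, a phosphatase that acts on SMADs, had values of 76 and 83 in Myh9 KO and 83 and 87 in WT and was not called, although both tests called it lower after removal of the trend on GC content and length (log2 fold change -0.27, limma adjusted p = 0.0148). Of 16 secreted BMP antagonists, 10 were listed at 0 throughout and 4 were tested, of which 2 fell and 0 rose (median log2 fold change -0.43, and -0.16 with no filter). Fst, which codes for follistatin, a binder of activins and some BMPs, fell to 1 and 1 in Myh9 KO, against 4 and 4 in WT (log2 fold change -1.32, limma adjusted p = 0.000935, and 0.0109 with random decimals). Its replicates were equal in both groups, so the limma p rests on no spread of its own, and random decimals lost Fst without WT 1 (adjusted p = 0.0627) and without WT 2 (0.0602). Fstl1, a related secreted protein, fell to 35 and 34 in Myh9 KO, against 50 and 52 in WT (limma log2 fold change -0.55 with an SE of 0.03, adjusted p = 0.0159). Without any 1 library the designed test lost Fstl1, at adjusted p from 0.071 without WT 1 to 0.0912 without Myh9 KO 2. Twsg1, which works together with chordin, had values of 5 and 5 in Myh9 KO and 6 and 7 in WT, and Dand5 had 2 and 1 in both groups.

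Of 14 other genes that BMP is known to induce in 1 cell type or another, 7 were tested and 1 rose, while 0 fell. Of the 7, 6 had a log2 fold change above 0, as did 5248 of all 11231 tested genes. The median was 0.67, against 0 over all tested genes, and 0.42 without WT 2. This list leaves out the targets among the 10 genes, of which Id1 and Id3 rose and Smad7 fell. Of those targets, Id2, Id4, Smad6 and Bambi had lower values in Myh9 KO. The list was chosen with earlier results of these data known, and a general change of BMP-induced genes was not tested. Dusp9, a phosphatase of ERK that BMP4 is known to induce in mouse embryonic stem cells, rose to 152 and 166 in Myh9 KO, against 86 and 88 in WT (log2 fold change 0.86, SE 0.06, fold 1.82 with an interval from 1.58 to 2.09, limma adjusted p = 0.0187, and 9.12e-05 with random decimals). The designed test lost Dusp9 without WT 1 (limma adjusted p = 0.14) and without WT 2 (0.135). Gata2, a GATA factor of trophoblast and blood precursors, had values of 18 and 27 in Myh9 KO and 10 and 8 in WT (log2 fold change 1.21, SE 0.28), and was called with random decimals alone (adjusted p = 0.0037; limma adjusted p = 0.11). Both tests called Gata2 higher with median centring (limma adjusted p = 0.0241) and after removal of the trend on GC content and length (0.021). Its log2 fold change was 1.49 without Myh9 KO 1 and 0.93 without Myh9 KO 2. For Gata2 the Myh9 KO libraries lay further from each other than the nearest libraries of the groups did. Msx2, a homeobox gene named after its values were seen, had values of 12 and 13 in Myh9 KO and 7 and 8 in WT (limma adjusted p = 0.052, and 0.0142 with random decimals). Both tests called Msx2 higher with a mean of at least 2, median centring or removal of that trend (limma adjusted p = 0.0459, 0.0161 and 0.0121). Limma did not do so with a pseudocount of 0.5 (adjusted p = 0.0533) or no filter (0.0538). The Msx2 log2 fold change of 0.67 was 0.58 without WT 1 and 0.75 without WT 2. Tfap2c, a trophoblast and germ cell factor, had values of 17 and 15 in Myh9 KO and 14 and 16 in WT. Trophoblast markers, of which Eomes rose, summed to 18 and 18 in Myh9 KO and 12 and 12 in WT beside these, and their part was not tested.

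Among 15 ID partners and other bHLH factors, 9 were tested, of which 1 rose and 0 fell (median log2 fold change 0.23, and 0.13 without WT 1 or 0.14 after removal of the trend on GC content and length). The designed test called 3 higher, Usf2 among them, and 1 lower. Usf2, a bHLH leucine zipper factor, rose to 77 and 78 in Myh9 KO, against 65 and 64 in WT (limma log2 fold change 0.26 with an SE of 0.02, adjusted p = 0.018). Of its 50-base words 11.2% occur in other genes, and its log2 fold change was 0.13 after removal of the trend on GC content and length (limma adjusted p = 0.13). Without any 1 library the designed test lost Usf2, at adjusted p from 0.0726 without Myh9 KO 1 to 0.0847 without WT 2. Tcf3, the gene of the E proteins E12 and E47 that ID proteins bind, had values of 122 and 137 in Myh9 KO and 115 and 119 in WT (fold interval 0.918 to 1.33, limma adjusted p = 0.336). Usf1 had values of 116 and 130 in Myh9 KO and 98 and 112 in WT (limma adjusted p = 0.294).

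The NODAL and activin branch, which signals through SMAD2 and SMAD3, was read for comparison. Of 13 tested genes 2 rose and 0 fell, with a median log2 fold change of -0.05 (between -0.09 and 0.06 under the alternatives). The designed test called the same 2 higher and 1 lower. Gdf3, a TGF-beta family ligand, rose to 255 and 262 in Myh9 KO, against 198 and 200 in WT (limma log2 fold change 0.38 with an SE of 0.02, adjusted p = 0.0134). Drap1, a corepressor that binds FOXH1, rose to 295 and 301 in Myh9 KO, against 263 and 261 in WT (limma log2 fold change 0.19 with an SE of 0.02, adjusted p = 0.0273). The designed test lost Gdf3 without WT 1 (limma adjusted p = 0.105) and without WT 2 (0.101). It lost Drap1 with any library left out, at adjusted p from 0.0565 without Myh9 KO 1 to 0.158 without WT 2, and with median centring (0.055). Tdgf1, the NODAL co-receptor Cripto, had values of 240 and 216 in Myh9 KO and 236 and 235 in WT, and Lefty2, a NODAL inhibitor and target, had 123 and 109 in Myh9 KO and 114 and 106 in WT. The difference between the BMP and NODAL branches was not tested.

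**Figure D4:**
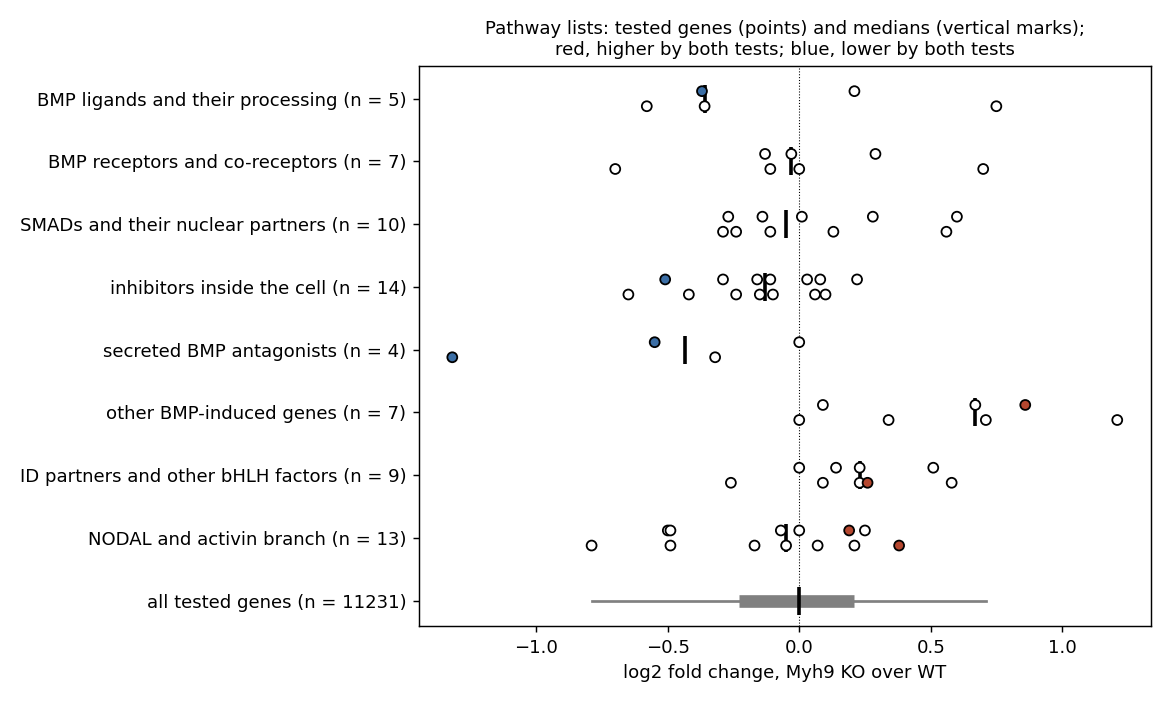
Log2 fold change of Myh9 KO over WT (horizontal axis) of the tested genes in 8 pathway lists, with the median of each list as a vertical mark; red points were higher and blue points lower by both tests, and for all 11231 tested genes the thick bar spans the 25th to the 75th percentile and the thin line the 5th to the 95th. The other BMP-induced genes have their median at 0.67, which is 0.42 without WT 2, the secreted antagonists at -0.43, which is -0.16 with no filter, and the receptors at -0.03. The list of other BMP-induced genes leaves out the ID genes, Smad6, Smad7 and Bambi.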

How the data were processed

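Gene expression was measured by RNA-seq of oligo-dT enriched mRNA in 2 Myh9 KO and 2 WT libraries, grouped by their titles. As deposited, the values are whole numbers with nearly equal totals and were handled as a score, for which the authors' rounding and scaling are not given in the sources used here. Bowtie2 2.2.5, RSEM 1.3.0 and bcl2fastq, with mm10 and hg38, are listed per the submitters' processing notes, which state no role for them here. The protocols describe no strand-marking step. Of 50600 identifiers, 50376 were found in GENCODE vM21, 92.91% of them with the same coordinates, and 26 of 27 names turned into dates were restored.

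The main test was limma with an intensity trend (version 3.58.1, under R 4.3.3) of log2(value + 1) in 11231 genes averaging 1 or more, Myh9 KO against WT with no block, and Benjamini-Hochberg adjustment over all of them. The fold on that scale understates the change of low genes. The second test added a uniform decimal between 0 and 1 to each value before the log, with the median over 25 draws. Both were also run on simulated data with independent noise, and that outcome is neither reported nor used here. Pearson's r was 0.988 between Myh9 KO libraries, 0.991 between WT libraries and 0.964 to 0.968 between groups. The members, lists and tests were chosen with earlier results of these data known. Outside the 10 genes, each list names the genes called by both tests (up to 6) and the 2 others with the highest mean, and the nearest patterns are the 2 closest named genes. Alternatives were a pseudocount of 0.5, no filter, a mean of at least 2, random decimals, median centring, removal of the GC content and length trend, each library left out, and a replicate block.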

Additional observations from a re-analysis of the deposited data

How the results depend on the processing

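Between 11 alternative settings, Id1, Id3, Bmp4, Id2, Id4, Smad1, Smad6, Smad7 and Bambi kept the sign of their log2 fold change, and Bmpr1a, not called, ranged from -0.26 to 0.04. By the designed test 805 genes were higher and 894 lower, which became 1236 and 1351 with random decimals, and 1402 were higher after removal of the trend on GC content and length. By both tests 577 were higher and 651 lower, which became 1332 and 1232 with that trend removed, and 1112 were higher with median centring. With 1 library left out, 599 to 1032 genes were higher and 796 to 1030 lower by the designed test, and 137 to 328 and 193 to 405 by both. Of the 10 genes, 1 to 2 were then higher and 2 to 3 lower by the designed test, and 0 to 2 and 0 to 1 by both. The lower count by both tests, 1 in the report, was 2 with a pseudocount of 0.5, a mean of at least 2, median centring or the trend removed. The higher count by both tests, 2 in the report, was 3 with median centring or the trend removed, which added Bmp4. The labels do not say whether a replicate number marks a shared culture or day. Deviations of same-numbered libraries had a correlation of 0.0407 over the tested genes, many of them low, which cannot exclude a shared batch. With the replicate block, 10 genes were higher and 44 lower by either rule, and 0 of the 10 genes were called by limma in either direction (7 at an unadjusted p under 0.05, and 5 with random decimals alone). With that block the designed test gave Id1 a limma adjusted p of 0.0733, at an unchanged log2 fold change of 1.75. Tdgf1, at -0.05 in the report, was at 0.17 after removal of that trend (limma adjusted p = 0.0328). The cause of these changes was not tested. With 2 libraries per group and whole-number values, differences of 1 unit are not resolved.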
